A study of Mus musculus with 35 samples.

Results

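The acute phase response genes described here are 10 liver genes, listed by name: Saa1, Saa2, Saa3, Saa4, Orm1, Orm2, Hp, Lcn2, Apcs and Hamp. Each was taken from the deposited expression table through the brightest probe set annotated to that gene alone, which left 9 of the 10 genes, out of 18820 genes measured in this way. Saa1 had no such probe set: its probe set is annotated to both Saa2 and Saa1, and its values are given separately as those of a feature shared by the pair.

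Liver RNA was measured on 35 Affymetrix arrays, 1 per sample, in 8 groups from 3 mouse models of liver cancer. DEN mice were injected intraperitoneally on day 15 of life with 10 mg per kg of diethylnitrosamine, which hepatocytes convert into a DNA-damaging agent, and their tumors were examined at 9 months. They gave 5 tumors and 5 samples of non-tumorous liver (NTL), set against 5 livers of untreated control mice. LT mice (tg1223) express lymphotoxin alpha and beta at high level in the liver through a transgene and were followed for 12 months, and they gave 3 tumors and 5 NTL samples. MYC mice carry TRE-MYC and LAP-tTA, a liver-specific driver, and received doxycycline (200 mg per kg of chow), which keeps the transgene silent, up to the age of 8 weeks. They gave 5 tumors and 3 NTL samples. The LT and MYC groups share 4 control livers from transgene-negative mice, so their comparisons with controls are not independent of each other, nor are 2 comparisons that share the same tumors. The labels describe both control groups as matched for sex and age, and they give neither strain nor the age of controls.

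Tumor and NTL arrays of a model carry different mouse identifiers, so tissue and animal cannot be told apart between them. DEN tumors 1 and 4, DEN tumors 3 and 5, and LT tumors 1 and 2 share identifier stems, and the identifiers of the 3 MYC NTL samples begin with WT. The labels call these samples NTL of the MYC model, and whether the mice carried the transgenes cannot be told from the labels. Every MYC tumor minus NTL value below is subject to this doubt. Xist, expressed from the inactive X chromosome of females, had log2 values of 11.74 to 12.22 on 9 arrays and of at most 6.24 on the others. The 9 arrays were the 3 LT tumors, LT NTL 1, 3, 4 and 5, DEN control 3 and shared control 3, so array sex was not uniform in 3 groups, the LT NTL and both control groups. All tumor and NTL arrays of DEN and MYC had low Xist. Model and array sex therefore cannot be fully told apart where LT groups are set against shared controls or other models. Array medians lay between 5.59 and 5.73 log2 units. Levels below are the authors' log2 values, in which 1 unit is a doubling, and levels of different genes are not compared because their probes differ. A change was called at an adjusted p under 0.05 in limma (moderated tests over all 8 groups, Benjamini-Hochberg adjustment over all 18820 genes). The labels do not say whether the samples of a group came from separate litters or cages, so the p-values measure the spread between these samples.

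Acute phase proteins are plasma proteins whose hepatic synthesis changes in inflammation. Interleukin-6 acts through STAT3, interleukin-1 and tumor necrosis factor act through NF-kB, and factors of the C/EBP family take part at many acute phase promoters. Serum amyloid A proteins (Saa genes) are apolipoproteins of high density lipoprotein, the orosomucoids (Orm genes) carry basic and lipophilic ligands, haptoglobin (Hp) binds free haemoglobin, lipocalin 2 (Lcn2) binds bacterial siderophores, Apcs encodes serum amyloid P, a pentraxin and the main inducible one in mice, and Hamp encodes hepcidin, which lowers iron export through ferroportin.

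RefSeq promoter sequences of build GRCm38.p6 were available for 8 of the 10 genes, all but Orm1 and Hp. The 250 bases before the transcript start are shown for a selection of these members that follows no test result. They are also shown for Hamp2, the neighbour and paralog of Hamp that changed beside it. The genes shown are Saa2 (chr7:46751583-46751832, plus strand), Saa3 (chr7:46715677-46715926, minus strand), Orm2 (chr4:63362199-63362448, plus strand), Lcn2 (chr2:32387740-32387989, minus strand), Hamp (chr7:30944030-30944279, minus strand) and Hamp2 (chr7:30924182-30924431, minus strand). Each window is read 5′ to 3′ on the strand of its gene. Capitals mark matches, on either strand, to TTNNGNAA (a C/EBP motif), TTCNNNGAA (a STAT motif) or GGCGCC (a BMP response motif).
Saa2: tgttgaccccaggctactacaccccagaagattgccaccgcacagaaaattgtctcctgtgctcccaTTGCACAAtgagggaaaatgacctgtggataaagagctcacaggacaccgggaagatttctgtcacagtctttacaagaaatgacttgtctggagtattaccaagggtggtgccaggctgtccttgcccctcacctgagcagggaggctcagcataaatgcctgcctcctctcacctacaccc
Saa3: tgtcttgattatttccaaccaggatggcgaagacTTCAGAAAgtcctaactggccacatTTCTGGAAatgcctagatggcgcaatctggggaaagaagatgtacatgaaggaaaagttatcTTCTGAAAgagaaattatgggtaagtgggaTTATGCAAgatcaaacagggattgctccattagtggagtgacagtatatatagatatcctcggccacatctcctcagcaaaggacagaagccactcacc
Orm2: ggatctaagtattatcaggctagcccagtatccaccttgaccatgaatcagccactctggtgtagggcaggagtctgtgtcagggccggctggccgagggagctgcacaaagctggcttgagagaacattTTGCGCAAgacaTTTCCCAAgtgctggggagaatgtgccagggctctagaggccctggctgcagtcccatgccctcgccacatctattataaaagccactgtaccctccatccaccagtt
Lcn2: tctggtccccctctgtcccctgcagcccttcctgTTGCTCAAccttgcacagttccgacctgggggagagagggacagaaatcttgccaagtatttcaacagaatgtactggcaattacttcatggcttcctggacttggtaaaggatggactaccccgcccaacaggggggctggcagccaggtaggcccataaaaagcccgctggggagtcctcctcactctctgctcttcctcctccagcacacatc
Hamp: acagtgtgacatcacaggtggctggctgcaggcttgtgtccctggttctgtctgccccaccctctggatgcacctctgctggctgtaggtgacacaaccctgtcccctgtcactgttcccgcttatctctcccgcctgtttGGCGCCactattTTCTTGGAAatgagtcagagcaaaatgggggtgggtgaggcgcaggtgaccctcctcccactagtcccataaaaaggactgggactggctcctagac
Hamp2: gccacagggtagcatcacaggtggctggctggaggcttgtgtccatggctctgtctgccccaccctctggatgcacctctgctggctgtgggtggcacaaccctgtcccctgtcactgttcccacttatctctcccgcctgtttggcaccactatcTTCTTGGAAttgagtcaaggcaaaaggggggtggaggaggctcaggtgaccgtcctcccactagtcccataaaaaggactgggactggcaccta
C/EBP motif matches were found in the windows of Saa1, Saa2, Saa3, Saa4, Orm2 and Lcn2, and the same motif occurs in 36.8% of 32851 promoter windows of this length. Saa3 held 4 matches, the most upstream beginning at position -216 from the start and the nearest at -99. The STAT motif, present in 7.02% of all windows, matched Hamp at -97, Hamp2 at -94 and Apcs at -244. The BMP motif, present in 9.59%, matched Hamp at -109 and not Hamp2. A search for the NF-kB motif, present in 3.9% of windows, gave no match in the members. A match is a description of letters in this window, not a bound site. The Hamp and Hamp2 windows were 89.7% identical, those of Saa1 and Saa2 94.8%, and those of Saa2 and Saa3 47.9%. The annotated gene of Saa3 reaches further upstream than its window, and that of Saa1 reaches into its window. The 4 Saa genes lie within 42316 bases on chromosome 7.

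Lcn2 was called higher in the tumors of all 3 models than in their NTL, and Hamp was called lower in the tumors of all 3 models than in control livers. The Lcn2 call in LT and the Hamp calls in all 3 models were each lost in some fits, as given below. Saa3, Saa4, Orm1 and Apcs were called in some models and not in others. Saa2, Orm2 and Hp were called in no comparison of groups. In DEN tumors against DEN NTL, 2 of 9 genes (Lcn2 and Apcs) were called higher and 1 (Orm1) lower, where 15.6% of all genes were called higher and 16.7% lower. In LT tumors against LT NTL, 1 gene (Lcn2) was higher and 2 (Saa4 and Hamp) were lower, against 10.7% and 9.73% of all genes. In MYC tumors against MYC NTL, 2 genes (Lcn2 and Saa3) were higher and 3 (Saa4, Orm1 and Hamp) were lower, against 11.5% and 10.3% of all genes. The DEN count of 3 of 9 is near the share of all genes, and the MYC count of 5 of 9 is above it, without a test. The median change of the 9 genes was -0.90 in DEN, -0.08 in LT and 0.05 in MYC, beside -0.04, -0.03 and -0.03 over all genes.

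Against control livers, DEN tumors had 2 genes higher (Lcn2 and Apcs) and 3 lower (Saa3, Orm1 and Hamp), where 15% of all genes were called higher and 15.6% lower. LT tumors had 2 lower (Saa4 and Hamp) and 0 higher, where 8.78% of all genes were higher and 7.73% lower. MYC tumors had 2 higher (Lcn2 and Apcs) and 2 lower (Orm1 and Hamp), where 10.2% of all genes were higher and 10.3% lower. No member was called between NTL and controls in any model, where 0.197% of all genes were called in DEN, 2.41% in LT and 3.83% in MYC. At an unadjusted p under 0.05 in limma, 2 members (Saa4 and Apcs) differed between MYC NTL and shared controls, where 16.4% of all genes did. In DEN and LT 0 members did, against 9.55% and 15.6% of all genes.

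The arrays of the groups did not overlap for 5 of 9 genes in DEN tumors against DEN NTL (Saa4, Orm1, Lcn2, Apcs and Hamp), where 22.4% of all genes did not overlap. This held for 1 gene in LT tumors against LT NTL (Saa4, 16.3% of all genes) and for 5 in MYC tumors against MYC NTL (Saa4, Orm1, Hp, Lcn2 and Hamp, 26.9% of all genes). Against controls it held for 5 genes in DEN tumors (Saa3, Orm1, Lcn2, Apcs and Hamp, 20.9% of all genes), 1 in LT tumors (Lcn2, 18.5%) and 5 in MYC tumors (Saa2, Orm1, Hp, Lcn2 and Hamp, 17.5%). Between NTL and controls it held for no member in DEN and LT, where 4.68% and 8.17% of all genes did not overlap, and for Saa4, Orm1 and Apcs in MYC, where 22.1% did not. The tumor minus NTL change itself was tested between models. It differed between DEN and LT in 3 members (Saa4, Orm1 and Orm2), where 13.9% of all genes differed. It differed between DEN and MYC in 1 member, where 15.1% of all genes differed, and between LT and MYC in 1, where 12.4% did, and that member was Saa3 in both tests.

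The fit over all 8 groups lends each gene 1 spread, and a fit with only the arrays of the groups compared gave other calls. It lost Saa4, Lcn2 and Hamp in LT tumors against LT NTL, Hamp in MYC tumors against MYC NTL, Saa4 and Hamp in LT tumors against shared controls, and Orm1 and Hamp in MYC tumors against shared controls. It added Saa4 and Hamp in DEN tumors against DEN NTL, Hp in MYC tumors against MYC NTL, Saa2 and Hp in MYC tumors against shared controls, and Saa4 and Apcs in MYC NTL against shared controls. Between models it lost Saa4, Orm1 and Orm2 for DEN minus LT and added Apcs for DEN minus MYC and Hp for LT minus MYC.

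**Figure D1:**
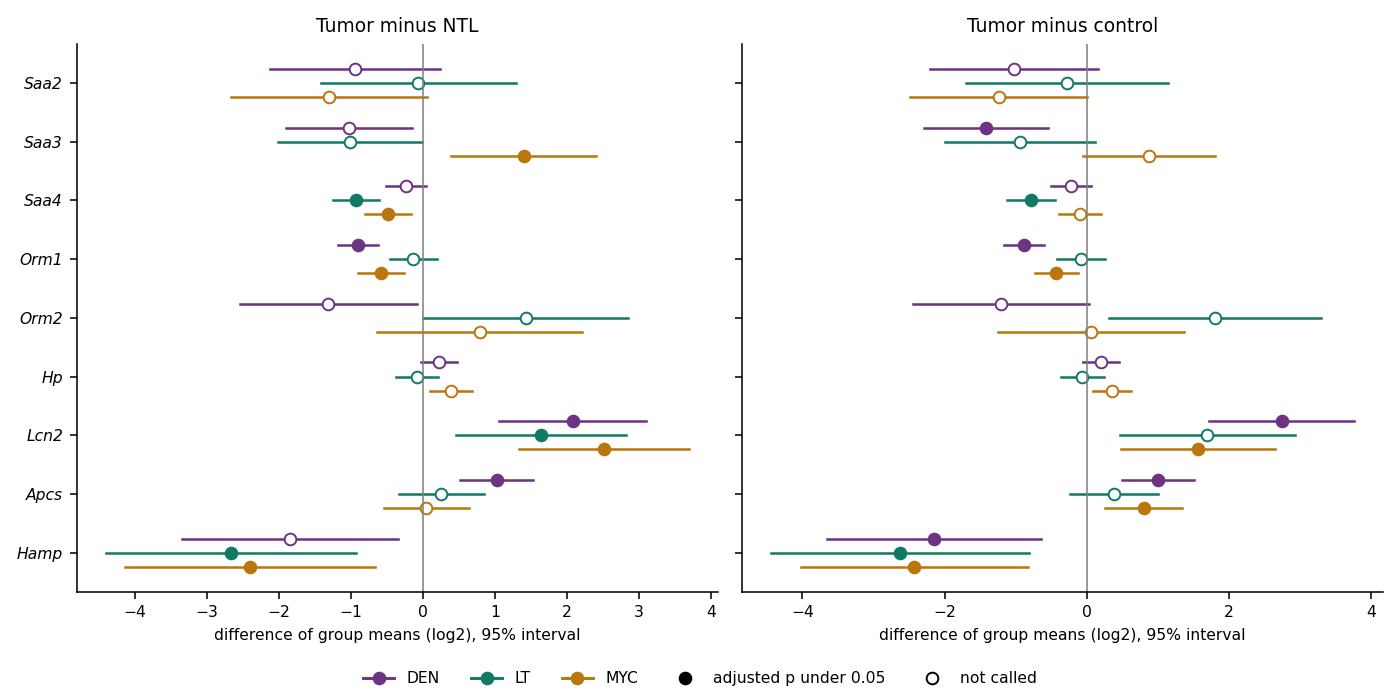
Difference of group means on the log2 scale with its 95% interval for each of the 9 genes, tumor minus NTL on the left and tumor minus control on the right, with DEN, LT and MYC in separate colors and filled points for an adjusted p under 0.05. Lcn2 lies right of 0 and Hamp left of 0 in all 6 differences, and Saa3 lies right of 0 in MYC and left of 0 in DEN and LT.

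Lcn2, which encodes a siderophore-binding protein that is induced in hepatocytes in inflammation and also stored in neutrophil granules, showed 12.85, 12.76, 13.22, 13.34 and 13.29 in the 5 DEN tumors. It stood at 10.56, 11.88, 10.95, 10.84 and 10.84 in the 5 DEN NTL samples and at 12.04, 10.26, 11.47, 8.70 and 9.31 in the 5 DEN controls. Every DEN tumor was above every NTL and control array. The difference to NTL was 2.08 ± 0.50 (SE), a 4.225-fold higher level (adjusted p = 0.00171, limma), and the difference to controls was 2.74 ± 0.50 (adjusted p = 6.97e-05). Both calls held without any single array.

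In LT tumors Lcn2 was at 12.18, 12.28 and 11.37, against 11.84, 8.81, 10.35, 10.82 and 9.68 in LT NTL. LT NTL 1 lay above the lowest tumor, so these groups overlapped. The difference was 1.64 ± 0.58 (adjusted p = 0.042, limma). The call was lost when LT NTL 2, LT NTL 3, LT NTL 5, LT tumor 1 or LT tumor 2 was left out, with differences of 1.27 to 1.65 and adjusted p of 0.0611 to 0.172. With LT tumors 1 and 2, which share a stem, averaged to 1 sample, it was 1.497 (adjusted p = 0.172), and with array sex as a covariate 1.36 (adjusted p = 0.0623). Against the shared controls, at 10.69, 10.21, 10.95 and 9.15, the LT tumors did not overlap, and the difference of 1.69 ± 0.60 missed the threshold (adjusted p = 0.0519). It passed without shared control 3 or LT tumor 3 (1.93 to 1.98, adjusted p of 0.0338 to 0.0426).

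MYC tumors had Lcn2 at 12.01, 11.12, 11.89, 11.45 and 12.56, and MYC NTL at 9.45, 8.72 and 9.72. Every MYC tumor was above every MYC NTL sample and every shared control. The difference to NTL was 2.51 ± 0.58, or 5.71-fold (adjusted p = 0.00202, limma), and held without any single array. The difference to shared controls was 1.56 ± 0.53 (adjusted p = 0.0344). It was lost without shared control 2 or 4 or MYC tumor 1, 3 or 5, with differences of 1.19 to 1.55 and adjusted p of 0.0538 to 0.145. By group mean the order was DEN tumors (13.09 ± 0.27, SD), LT tumors (11.94 ± 0.50), MYC tumors (11.81 ± 0.55), DEN NTL (11.01 ± 0.51), DEN controls (10.36 ± 1.41), LT NTL (10.30 ± 1.15), shared controls (10.25 ± 0.80) and MYC NTL (9.29 ± 0.52). Among neighbours in this order, the arrays of DEN and LT tumors did not overlap, and those of every other neighbouring pair did. The tumor minus NTL changes of Lcn2 were not called different between models (adjusted p of 0.766 for DEN minus LT, 0.781 for DEN minus MYC and 0.536 for LT minus MYC).

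Neutrophils also hold Lcn2, and the values of their other markers are given for each model. In LT tumors 13 of 16 neutrophil markers were higher than in LT NTL, and the log2 of their summed level ran from 9.40 to 10.54 in LT tumors and from 8.92 to 9.10 in LT NTL. In DEN 1 of 16 markers was higher, with sums of 9.01 to 9.24 in DEN tumors and 8.93 to 9.42 in DEN NTL. In MYC 1 of 16 was higher, with sums of 8.73 to 9.17 in MYC tumors and 8.86 to 8.95 in MYC NTL. Against shared controls, 4 of 16 markers were higher in LT tumors, and the control sums of 9.02 to 9.48 overlapped with those of the LT tumors. In MYC tumors 1 marker was lower than in shared controls. In DEN tumors 1 was higher and 2 were lower than in DEN controls. The part of neutrophils in the Lcn2 values was not tested. In bulk tissue fewer cells of a type and less RNA per cell cannot be told apart, here and in all results below.

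Hamp, which encodes the iron hormone hepcidin, was nearly uniform outside tumors and scattered widely within them. DEN tumors had 11.62, 9.94, 10.38, 10.53 and 9.65, against 12.14, 12.06, 12.56, 12.18 and 12.41 in DEN NTL and 12.62, 12.55, 12.71, 12.46 and 12.51 in DEN controls. Every DEN tumor lay below every NTL and control array. The difference to controls was -2.14 ± 0.74 (adjusted p = 0.0253, limma), lost without DEN tumor 2 or 5 (-2.02 to -1.95, adjusted p of 0.0526 to 0.0633). The difference to NTL was -1.85 ± 0.74, with an adjusted p of 0.0543 that just missed the threshold. Without DEN tumor 1, the highest of the 5, it was -2.14 (adjusted p = 0.0335). It passed with only the arrays of these groups in the fit (adjusted p = 0.00105). The fit over all groups takes in the spread of the LT and MYC tumors, with SDs of 3.55 and 1.77, against 0.75 in DEN tumors.

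LT tumors had Hamp at 11.08, 6.001 and 12.84, against 12.77, 12.16, 12.66, 12.78 and 12.85 in LT NTL. LT tumor 2 was far below all other samples, LT tumor 1 was moderately low and LT tumor 3 was within the NTL range, although tumors 1 and 2 share an identifier stem. The difference of -2.67 ± 0.85 (adjusted p = 0.0244, limma) rests on LT tumor 2: without it the value was -0.69 (adjusted p = 0.519), and without LT tumor 3 it was -4.11. With LT tumors 1 and 2 averaged it was -1.96 (adjusted p = 0.101), and with only the arrays of the groups compared the adjusted p was 0.234. Against shared controls, at 12.40, 12.55, 12.72 and 12.73, the difference was -2.63 ± 0.89 (adjusted p = 0.0404). That call was lost without any one of the 4 controls, LT tumor 1 or LT tumor 2 (-3.18 to -0.64, adjusted p of 0.0569 to 0.558), and without LT tumor 3 the value was -4.06. It was also lost with LT tumors 1 and 2 averaged (-1.91, adjusted p = 0.14), with array sex as a covariate (-2.86, adjusted p = 0.099) and with only the arrays of the groups compared (adjusted p = 0.328).

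In MYC tumors Hamp was at 9.81, 7.70, 12.31, 11.37 and 9.67, against 12.49, 12.69 and 12.56 in MYC NTL. All 5 tumors were below all NTL and shared control arrays, by little in MYC tumor 3 and by the most in MYC tumor 2. The difference to NTL was -2.41 ± 0.85 (adjusted p = 0.0408, limma), lost without any one of the 3 NTL arrays or MYC tumor 1, 2 or 5 (-2.45 to -1.79, adjusted p of 0.0696 to 0.13). The difference to shared controls was -2.42 ± 0.78 (adjusted p = 0.0255), lost without shared control 2, 3 or 4 or MYC tumor 2 or 5 (-2.44 to -1.81, adjusted p of 0.0517 to 0.0993). With only the arrays of the groups compared both calls were lost (adjusted p of 0.0833 to NTL and 0.0527 to shared controls). The direction was the same in all of these fits.

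Hamp2, whose probe set may share signal with Hamp because the genes are near-identical copies, averaged 6.49 ± 0.88 in DEN tumors, 7.71 ± 0.49 in DEN NTL and 8.65 ± 0.66 in DEN controls (SD, n = 5 each). It averaged 7.04 ± 2.71 in LT tumors and 9.16 ± 0.85 in LT NTL, and 6.39 ± 1.03 in MYC tumors and 8.47 ± 0.14 in MYC NTL. It fell by 2.12 ± 0.73 in LT (adjusted p = 0.0376, limma) and by 2.08 ± 0.73 in MYC (adjusted p = 0.0392). In DEN its difference to NTL was -1.21 ± 0.63 (adjusted p = 0.145) and to controls -2.16 ± 0.63 (adjusted p = 0.00841).

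**Figure D2:**
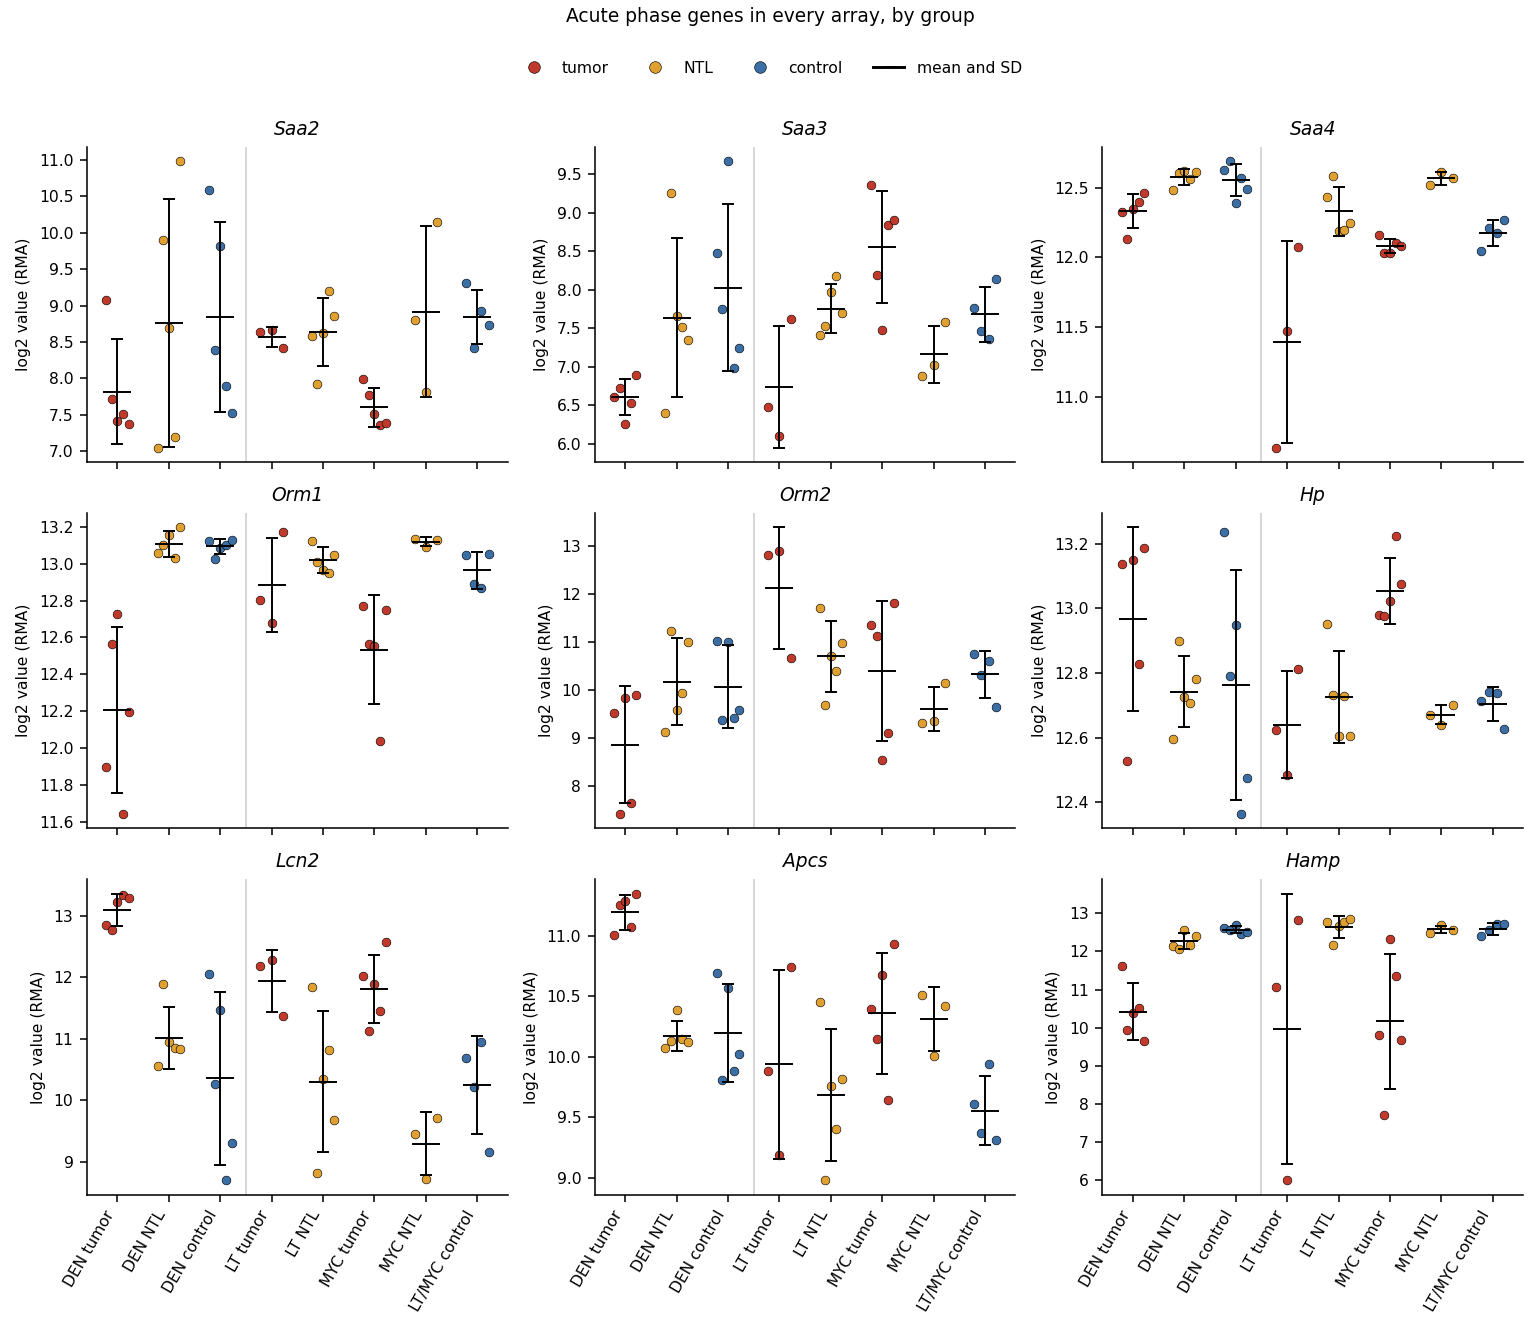
Log2 level of each of the 9 genes in every array, with tumor, NTL and control arrays in separate colors, DEN groups left of the grey line and LT and MYC groups right of it, and bars for the group mean and SD. The Lcn2 points of DEN tumors (12.76 to 13.34) stand above all other DEN arrays, and the Hamp points spread over 6.001 to 12.84 in LT tumors and 12.16 to 12.85 in LT NTL.

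Among the serum amyloid A genes, Saa2, Saa3 and Saa4 all had negative differences to NTL in DEN and LT tumors. In MYC tumors the difference of Saa3 was positive and those of Saa2 and Saa4 were negative. Saa3, made in mice by macrophages and other cells as well as hepatocytes, was at 6.61, 6.72, 6.26, 6.53 and 6.89 in DEN tumors. The DEN NTL samples had 6.40, 9.25, 7.66, 7.51 and 7.35, and the DEN controls had 8.48, 7.75, 9.67, 6.98 and 7.24. All DEN tumors were below all DEN controls, while DEN NTL 1 was as low as the tumors. The difference to controls was -1.42 ± 0.43 (adjusted p = 0.0103, limma), and -1.01 (adjusted p = 0.0571) without DEN control 3. The difference to NTL was -1.03 ± 0.43 (adjusted p = 0.0635). Without DEN NTL 1 it was -1.34 (adjusted p = 0.0183).

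MYC tumors went the other way for Saa3, with 9.36, 8.19, 7.48, 8.84 and 8.90, against 6.88, 7.02 and 7.57 in MYC NTL. The groups overlapped only through MYC tumor 3 and MYC NTL 3. The difference was 1.40 ± 0.49 (adjusted p = 0.0406, limma). It was lost without any one of the 3 NTL arrays or MYC tumor 1, 4 or 5 (1.19 to 1.60, adjusted p of 0.0526 to 0.146). With the replicate number as a block it was 1.43 (adjusted p = 0.0571). Against shared controls, at 7.75, 7.46, 7.35 and 8.14, it was 0.88 ± 0.45 (adjusted p = 0.182). In LT tumors Saa3 was at 6.48, 6.11 and 7.62, against 7.41, 7.53, 7.97, 8.17 and 7.70 in LT NTL (difference -1.02 ± 0.49, adjusted p = 0.151). Without LT tumor 3 it was -1.46 (adjusted p = 0.0458).

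Tested directly, the tumor minus NTL change of Saa3 differed between models. DEN minus MYC was -2.43 ± 0.65 (adjusted p = 0.01, limma) and held without any single array. LT minus MYC was -2.41 ± 0.70 (adjusted p = 0.0211). It was lost without LT tumor 1 or 2 or MYC NTL 1 or 2 (-2.34 to -2.10, adjusted p of 0.0514 to 0.0577). Macrophage markers moved in each model. Of 11 monocyte-derived macrophage markers, 4 were higher in DEN tumors than in DEN NTL, all 11 in LT and 6 in MYC. Their summed log2 level was 10.76 to 11.18 in DEN tumors against 10.07 to 10.91 in DEN NTL, 10.88 to 12.42 in LT tumors against 9.55 to 10.06 in LT NTL, and 10.25 to 11.37 in MYC tumors against 9.68 to 9.83 in MYC NTL. Against controls, 5 of the 11 were higher in DEN tumors, 10 in LT tumors and 1 in MYC tumors. Their part in the Saa3 values was not tested.

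Saa2, an acute phase apolipoprotein made in hepatocytes, was called in no comparison of the fit over all groups. It was at 9.08, 7.72, 7.41, 7.52 and 7.37 in DEN tumors, 7.05, 9.90, 8.69, 7.20 and 10.98 in DEN NTL, and 10.58, 8.40, 9.81, 7.90 and 7.53 in DEN controls. The DEN NTL samples ranged over almost 4 units, more than the difference of -0.95 ± 0.58 between tumor and NTL (95% interval -2.12 to 0.23, adjusted p = 0.221, limma). In MYC tumors it was at 7.99, 7.78, 7.52, 7.36 and 7.38, against 8.80, 7.81 and 10.14 in MYC NTL (difference -1.31 ± 0.66, adjusted p = 0.166). LT tumors had 8.64, 8.66 and 8.42, against 8.59, 7.92, 8.62, 9.21 and 8.85 in LT NTL (difference -0.07 ± 0.66, adjusted p = 0.963). The MYC tumors were all below the shared controls, at 9.31, 8.42, 8.92 and 8.73, by 1.24 ± 0.61 (adjusted p = 0.158), and with only these groups in the fit the adjusted p was 0.00189. The feature annotated to both Saa2 and Saa1 was lower in MYC tumors than in MYC NTL by -1.95 ± 0.59 (adjusted p = 0.0166), and lower in DEN tumors than in DEN controls by -1.32 ± 0.51 (adjusted p = 0.0494). It was not called in MYC tumors against shared controls (-0.39 ± 0.54, adjusted p = 0.677), and MYC NTL differed from those controls by 1.57 ± 0.62 (adjusted p = 0.167). Nor was it called in DEN tumors against DEN NTL (-1.05 ± 0.51, adjusted p = 0.116), in LT tumors against LT NTL (-0.50 ± 0.59, adjusted p = 0.606) or in LT tumors against shared controls (-0.36 ± 0.62, adjusted p = 0.731). Saa2 and Saa3 thus had opposite signs in MYC tumors, although the difference between the 2 genes was not itself tested.

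Saa4, which encodes a constitutive serum amyloid A with little acute phase induction, was at 10.64, 11.48 and 12.07 in LT tumors, against 12.43, 12.58, 12.19, 12.19 and 12.25 in LT NTL. All LT tumors were below all LT NTL samples, LT tumor 1 by the most. The difference was -0.93 ± 0.16 (adjusted p = 0.000139, limma), and -0.56 without LT tumor 1, where it was still called. Against shared controls, at 12.05, 12.21, 12.18 and 12.27, it was -0.78 ± 0.16 (adjusted p = 0.00195), and -0.40 without LT tumor 1. MYC tumors had 12.16, 12.03, 12.03, 12.11 and 12.08, against 12.52, 12.61 and 12.57 in MYC NTL. These groups did not overlap, and the difference was -0.48 ± 0.16 (adjusted p = 0.0265), lost without any one of the NTL arrays (-0.51 to -0.46, adjusted p of 0.0604 to 0.0896). Against shared controls the MYC difference was -0.09 ± 0.14 (adjusted p = 0.71), and MYC NTL were above the shared controls in every array (0.39 ± 0.16, adjusted p = 0.206). In DEN tumors, at 12.32, 12.13, 12.35, 12.39 and 12.46, Saa4 was below all DEN NTL samples (12.48, 12.60, 12.62, 12.56 and 12.61) without being called (-0.24 ± 0.14, adjusted p = 0.181). DEN controls had 12.63, 12.69, 12.39, 12.57 and 12.49 and overlapped with the tumors (-0.22 ± 0.14, adjusted p = 0.238). The DEN change minus the LT change was 0.69 ± 0.21 (adjusted p = 0.0243), and 0.31 (adjusted p = 0.16) without LT tumor 1. The LT change minus the MYC change was -0.45 ± 0.22 (adjusted p = 0.192), and -0.79 (adjusted p = 0.00202) without LT tumor 3.

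The orosomucoids, lipocalins that carry drugs and lipids in plasma, also parted by model. Orm1 was at 11.90, 12.56, 12.73, 11.64 and 12.20 in DEN tumors, against 13.06, 13.10, 13.16, 13.03 and 13.20 in DEN NTL and 13.12, 13.03, 13.08, 13.10 and 13.13 in DEN controls. The NTL and control values lay within a narrow band near the top of the range of the arrays, whose highest value was 14.25, and every tumor was below it. The difference was -0.90 ± 0.14 to NTL (adjusted p = 7.35e-06, limma) and -0.89 ± 0.14 to controls (adjusted p = 7.64e-06), and both held without any single array.

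MYC tumors had Orm1 at 12.77, 12.57, 12.55, 12.04 and 12.75, against 13.14, 13.09 and 13.13 in MYC NTL. The groups did not overlap, with a difference of -0.59 ± 0.16 (adjusted p = 0.00828, limma) that held without any single array. Against shared controls, at 13.05, 12.89, 12.87 and 13.05, it was -0.43 ± 0.15 (adjusted p = 0.0349). That call was lost without shared control 1, 2 or 4 or MYC tumor 2 or 4 (-0.45 to -0.31, adjusted p of 0.0519 to 0.129). LT tumors, at 12.80, 12.68 and 13.17, overlapped with LT NTL, at 13.12, 13.01, 12.97, 12.95 and 13.05 (difference -0.13 ± 0.16, adjusted p = 0.609). The DEN change was lower than the LT change by -0.77 ± 0.21 (adjusted p = 0.0138), in every fit that left out 1 array. With only the arrays of the 4 groups in the fit this call was lost.

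Orm2 was at 12.82, 12.90 and 10.67 in LT tumors, against 11.71, 9.69, 10.71, 10.41 and 10.99 in LT NTL. LT tumors 1 and 2, of 1 stem, were above every other array of the series, and LT tumor 3 was in the NTL range. The difference was 1.43 ± 0.70 (adjusted p = 0.157, limma). Without LT tumor 3 it was 2.16 (adjusted p = 0.0344). Against shared controls, at 10.75, 10.30, 10.60 and 9.65, it was 1.80 ± 0.73 (adjusted p = 0.0883), and 2.53 (adjusted p = 0.0186) without LT tumor 3. DEN tumors ran the other way, at 9.51, 7.41, 9.84, 7.65 and 9.89, against 9.13, 11.22, 9.58, 9.94 and 11.01 in DEN NTL (difference -1.31 ± 0.60, adjusted p = 0.0972). DEN controls had 11.02, 9.36, 10.99, 9.41 and 9.58, a spread that the tumors overlapped (-1.21 ± 0.60, adjusted p = 0.137). MYC tumors fell into high and low values, at 11.36, 11.12, 8.55, 9.10 and 11.81, against 9.31, 9.36 and 10.13 in MYC NTL (difference 0.78 ± 0.70, adjusted p = 0.466). The DEN change minus the LT change was -2.74 ± 0.92 (adjusted p = 0.0449). This call was lost in 11 of 18 fits that left out 1 array: DEN NTL 2, 4 or 5, DEN tumor 2 or 4, LT NTL 2, 3, 4 or 5, or LT tumor 1 or 2 (-2.81 to -2.36, adjusted p of 0.0551 to 0.129). It was also lost with only the arrays of these groups in the fit and with arrays of a shared stem averaged. Array sex as a covariate lost it too, as did trend and robust settings in eBayes. The DEN change minus the MYC change was -2.10 (adjusted p = 0.132), and -2.56 (adjusted p = 0.0447) without MYC tumor 3. Orm3, the third gene of the cluster, fell by 1.45 ± 0.47 in DEN tumors against DEN NTL (adjusted p = 0.0175) and differed by -0.74 ± 0.54 in LT and -0.13 ± 0.54 in MYC (adjusted p of 0.366 and 0.893). Probes of the Orm genes may share signal, since the genes are close copies; the windows upstream of Orm2 and Orm3 were 85.5% identical.

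Haptoglobin was called in no comparison, though it came close in MYC. Hp was at 12.98, 12.98, 13.02, 13.22 and 13.08 in MYC tumors, against 12.67, 12.64 and 12.70 in MYC NTL and 12.71, 12.74, 12.74 and 12.63 in shared controls. All MYC tumors were above all of these arrays, yet the differences of 0.38 ± 0.14 and 0.35 ± 0.13 missed the threshold (adjusted p of 0.0502 and 0.0547, limma). They passed with only the arrays of the groups compared in the fit. DEN tumors, at 13.14, 12.53, 13.15, 12.83 and 13.19, overlapped with DEN NTL, at 12.60, 12.90, 12.72, 12.71 and 12.78 (0.22 ± 0.12, adjusted p = 0.168). Without DEN tumor 2, the lowest, it was 0.33 (adjusted p = 0.0305). DEN controls had 13.24, 12.79, 12.95, 12.36 and 12.47, also overlapping (0.20 ± 0.12, adjusted p = 0.232), and that difference passed without DEN control 1 or DEN tumor 2 (0.31 to 0.32, adjusted p of 0.0336 to 0.0431). LT tumors had 12.62, 12.48 and 12.81, against 12.95, 12.73, 12.61, 12.73 and 12.60 in LT NTL (-0.08 ± 0.14, adjusted p = 0.736).

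Apcs, the pentraxin gene, was at 11.01, 11.26, 11.29, 11.07 and 11.35 in DEN tumors, against 10.08, 10.13, 10.39, 10.14 and 10.13 in DEN NTL and 10.70, 9.81, 10.57, 9.89 and 10.02 in DEN controls. Every DEN tumor was above every other DEN array. The differences were 1.02 ± 0.25 to NTL (adjusted p = 0.00198, limma) and 1.00 ± 0.25 to controls (adjusted p = 0.00228), and both held without any single array. In MYC tumors it was at 10.40, 10.15, 10.68, 9.64 and 10.93, against 10.51, 10.01 and 10.42 in MYC NTL and 9.61, 9.37, 9.94 and 9.31 in shared controls. MYC tumors overlapped with NTL (0.05 ± 0.29, adjusted p = 0.933) and were above controls by 0.80 ± 0.26 (adjusted p = 0.0291). That call was lost without shared control 1, 2 or 4 or MYC tumor 3 or 5 (0.66 to 0.82, adjusted p of 0.0523 to 0.0922). MYC NTL were themselves above every shared control (0.76 ± 0.30, adjusted p = 0.173). LT tumors, at 9.88, 9.19 and 10.74, overlapped with the LT NTL values of 10.46, 8.98, 9.76, 9.41 and 9.82 (0.25 ± 0.29, adjusted p = 0.591). Between models, the change of Apcs was not called different (DEN minus LT 0.77 ± 0.38, adjusted p = 0.188, and DEN minus MYC 0.98 ± 0.38, adjusted p = 0.0841). The first was 1.17 (adjusted p = 0.0268) without LT tumor 3, and the second 1.12 (adjusted p = 0.0464) without MYC tumor 5.

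Hepatocyte markers, a measure of the cells that make most of these proteins, fell in part in each model. Of 14 markers, 8 were lower in DEN tumors, 3 in LT tumors and 6 in MYC tumors than in NTL, and none was higher. Their summed log2 level ran from 16.18 to 16.48 in DEN tumors against 16.48 to 16.63 in DEN NTL, from 16.05 to 16.57 in LT tumors against 16.52 to 16.59 in LT NTL, and from 16.20 to 16.50 in MYC tumors against 16.66 to 16.70 in MYC NTL. Alb, albumin, differed by 0.04 ± 0.04, 0.00 ± 0.05 and -0.04 ± 0.05 (adjusted p of 0.56, 0.995 and 0.645). Saa2, Orm1, Saa4 and Hamp also had negative tumor minus NTL differences in each model. Saa2 was called in no model, Orm1 was not called in LT, and Saa4 and Hamp were not called in DEN. Lcn2 and Apcs had positive differences in each model, with Apcs called only in DEN. The differences of Saa3, Orm2 and Hp had both signs. No member was compared with this sum sample by sample, and its part in their values was not tested.

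Within groups, several of the genes deviated together from mouse to mouse. Each value was set as a deviation from its group mean, with arrays of a shared stem averaged, which left 32 samples, and 36 pairs of members were compared with permutation tests (two-sided, adjusted over the 36 pairs). Of these, 6 pairs were called. Orm2 and Lcn2 had Pearson r = 0.60 and Spearman rho = 0.63 (adjusted p of 0.00576 and 0.0108), and r = 0.64 without the 2 samples farthest from the median. Hp and Lcn2 had r = 0.67 and rho = 0.58 (adjusted p of 0.0144 and 0.0371), and r = 0.49 without those samples. The others were Saa2 with Lcn2 (r = 0.55, rho = 0.57, adjusted p of 0.0184 and 0.0371, r = 0.57 without the 2 samples) and Saa2 with Orm2 (r = 0.50, rho = 0.51, adjusted p of 0.0184 and 0.0371, r = 0.44). Lcn2 with Apcs (r = 0.60, rho = 0.55) and Orm1 with Apcs (r = 0.52, rho = 0.49) had adjusted permutation p of 0.0205 for r and 0.0686 for rho, with r = 0.56 and r = 0.46 without the 2 samples.

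Of the 6 pairs, 5 had a higher r outside the tumors than within them, and none of the 36 pairs was called without the 5 DEN controls. Across the 22 NTL and control samples r was 0.78 for Orm2 and Lcn2, 0.83 for Hp and Lcn2, 0.59 for Saa2 and Lcn2, 0.76 for Saa2 and Orm2, and 0.78 for Lcn2 and Apcs. Across the 10 tumor samples the same pairs had r of 0.54, 0.06, -0.06, 0.15 and 0.20. Orm1 and Apcs were the reverse, with r = 0.72 in tumors and 0.29 elsewhere, and the difference between tumors and other tissue was not tested for any pair. Without the DEN controls r was 0.55 for Orm2 and Lcn2, 0.54 for Lcn2 and Apcs and 0.55 for Orm1 and Apcs (adjusted permutation p of 0.0644, 0.192 and 0.103), near the values with them. It was lower without them for Hp and Lcn2, at 0.38, Saa2 and Lcn2, at 0.33, and Saa2 and Orm2, at 0.41 (adjusted permutation p of 0.239, 0.277 and 0.192). DEN controls 1 and 3 held the 2 highest values of their group in 7 of the 9 genes, all but Saa4 and Orm1. Their Lcn2 levels of 12.04 and 11.47 compare with 8.70 to 10.26 in the other 3 untreated livers. DEN control 3 is also the array of that group with high Xist, and DEN control 1 is not.

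**Figure D3:**
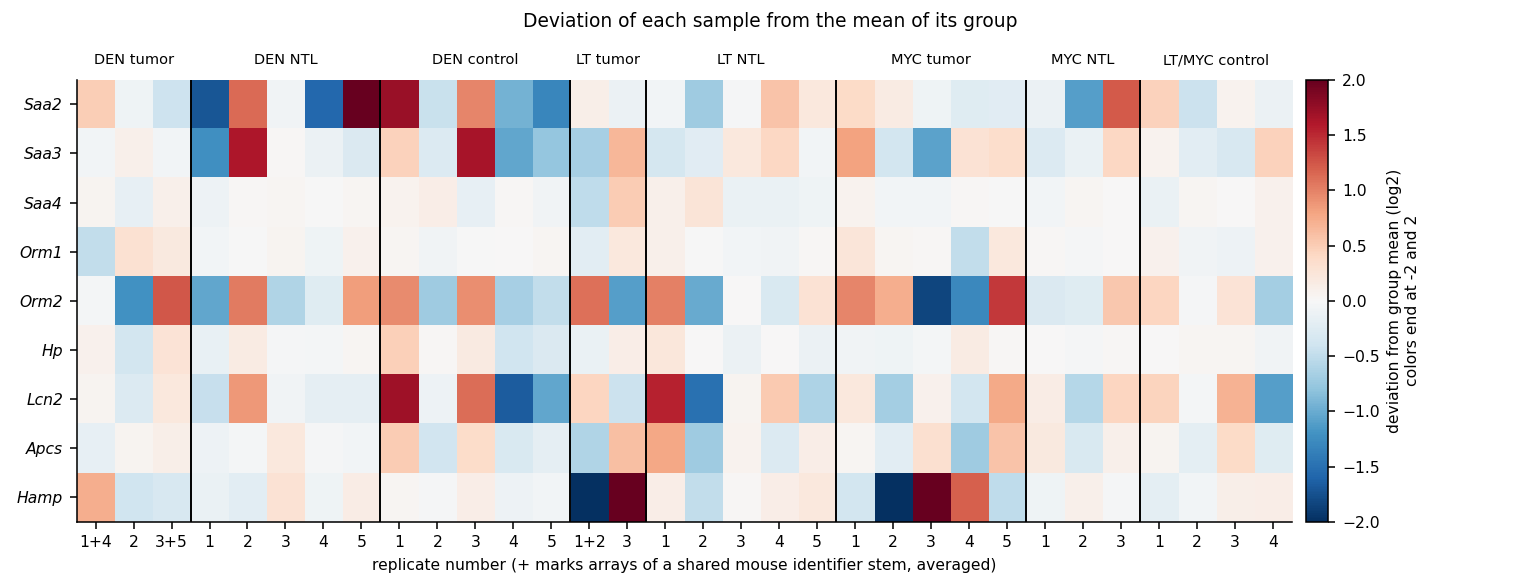
Deviation of each sample (columns, grouped) from the mean of its group for the 9 genes (rows), in log2 units, with arrays of a shared identifier stem averaged and colors ending at -2 and 2. DEN controls 1 and 3 are above their group mean in Saa2, Saa3, Orm2, Hp, Lcn2 and Apcs together, and Hamp deviates by more than 1 unit in both LT tumor samples and in 3 of the 5 MYC tumors.

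Across all 35 arrays, the genes with the pattern most like a member were those with the highest Pearson r over log2 levels, a description that mixes model, tissue and animal. Lcn2 was most like Mlkl (r = 0.90), the effector of necroptosis, Icam1 (r = 0.90), a leukocyte adhesion molecule, and Tmem176b (r = 0.86). Hamp was most like Cyp2f2 (r = 0.90), a periportal cytochrome, Hamp2 (r = 0.86) and Wfdc21 (r = 0.86). Orm1 was most like Adhfe1 (r = 0.89), Inmt (r = 0.86) and Scnn1a (r = 0.86), and Saa4 was most like Eif2ak1 (r = 0.87), Apoh (r = 0.84) and Rnf214 (r = 0.84). Apcs followed Bco1 (r = 0.80), Aph1b (r = 0.79) and Trf (r = 0.76), and Orm2 followed Egln3 (r = 0.79), Fth1 (r = 0.77) and Slc1a2 (r = 0.77). Nearest to Hp were Ift57 (r = 0.69), Cpne8 (r = 0.69) and Gas8 (r = 0.68), nearest to Saa3 were Rex1bd (r = 0.67), Dhodh (r = 0.67) and Mvb12a (r = 0.67), and nearest to Saa2 were Lrrc4c (r = 0.58), Clec2i (r = 0.57) and Hk3 (r = 0.57). No member was among the 3 nearest genes of another member.

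None of the cytokines Il6, Il1b and Tnf, which drive the response, was called at the RNA level in tumors against NTL, while several receptors were. Il6 differed by 0.00 ± 0.09 for DEN, 0.02 ± 0.11 for LT and 0.13 ± 0.11 for MYC tumors, each against NTL. Il1b differed by 0.23 ± 0.20, 0.48 ± 0.23 and -0.10 ± 0.23, and Tnf by 0.14 ± 0.19, 0.45 ± 0.22 and 0.23 ± 0.22. Of 18 cytokines and receptors measured, 6 were higher and 1 lower in DEN tumors and 5 higher and 2 lower in LT tumors. In MYC tumors 2 were higher and 4 lower (3 and 4 against shared controls). Beside this and every other list stand the shares of all genes called higher and lower against NTL. They were 15.6% and 16.7% in DEN, 10.7% and 9.73% in LT, and 11.5% and 10.3% in MYC. Il1rap, the co-receptor for interleukin-1, fell by 1.36 ± 0.21 in DEN, 1.12 ± 0.24 in LT and 0.98 ± 0.24 in MYC (adjusted p of 6.97e-06, 0.00118 and 0.00339, limma). Il6ra, the interleukin-6 receptor, fell by 1.04 ± 0.32 in LT and 1.26 ± 0.32 in MYC (adjusted p of 0.0181 and 0.00455), with -0.28 ± 0.27 in DEN (adjusted p = 0.466). Against shared controls Il6ra differed by 0.06 ± 0.33 in LT tumors and -0.05 ± 0.29 in MYC tumors (adjusted p of 0.921 and 0.93), and it was higher in LT NTL and MYC NTL than in those controls, by 1.11 ± 0.29 and 1.20 ± 0.33 (adjusted p of 0.0356 and 0.0338). In MYC tumors Lifr, the receptor for leukemia inhibitory factor, fell by 2.14 ± 0.42 (adjusted p = 0.000424).

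Several receptors and a ligand of the interleukin-6 family rose. In DEN tumors Lepr, the leptin receptor, rose by 2.38 ± 0.55 (adjusted p = 0.00119, limma), Osmr, the oncostatin M receptor, by 1.57 ± 0.27 (adjusted p = 3.38e-05) and Clcf1, a cytokine of the family, by 1.41 ± 0.23 (adjusted p = 1.91e-05). Clcf1 also rose in LT tumors, by 1.33 ± 0.27 (adjusted p = 0.000668). Il10rb, a subunit shared by the receptors for interleukin-10 and interleukin-22, rose in all 3 models, by 1.00 ± 0.17 in DEN, 1.25 ± 0.19 in LT and 0.59 ± 0.19 in MYC (adjusted p of 2.66e-05, 6.12e-05 and 0.0284). Against shared controls its difference in MYC tumors was 0.21 ± 0.18 (adjusted p = 0.449). Its partner in the interleukin-22 receptor, Il22ra1, rose by 1.11 ± 0.36 in LT and 1.20 ± 0.36 in MYC (adjusted p of 0.0267 and 0.0155), with 0.68 ± 0.31 in DEN (adjusted p = 0.0944).

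Among 23 STAT3, C/EBP and NF-kB factors and feedback genes, 12 were higher and none lower in DEN tumors against DEN NTL. In LT tumors 7 were higher and 2 lower, and in MYC tumors 6 were higher and 4 lower (4 and 3 against shared controls). Nfkb2, an NF-kB subunit, rose in all 3 models, by 0.92 ± 0.14, 0.59 ± 0.16 and 1.14 ± 0.16 (adjusted p of 5.79e-06, 0.00883 and 7.46e-06, limma). Nfkbiz, an inducible regulator of NF-kB that takes part in Lcn2 induction, rose by 0.89 ± 0.12 in DEN, 0.45 ± 0.14 in LT and 1.00 ± 0.14 in MYC (adjusted p of 1.81e-06, 0.0267 and 9.41e-06). Tnfaip3, a feedback inhibitor of NF-kB, rose by 0.62 ± 0.21 in DEN, 0.92 ± 0.24 in LT and 1.20 ± 0.24 in MYC (adjusted p of 0.0212, 0.0065 and 0.00051). The STAT3 feedback gene Socs3 differed by 0.72 ± 0.27 in DEN, 0.85 ± 0.31 in LT and 0.78 ± 0.31 in MYC (adjusted p of 0.0375, 0.0501 and 0.0696), and its difference between models was not tested here. Cebpa, a factor of mature hepatocytes, fell by 0.75 ± 0.18 in LT and 0.80 ± 0.18 in MYC (adjusted p of 0.00384 and 0.00191), and Cebpb fell by 0.77 ± 0.26 in MYC (adjusted p = 0.0287). Against shared controls Cebpb differed by -0.19 ± 0.23 in MYC tumors (adjusted p = 0.627).

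**Figure D4:**
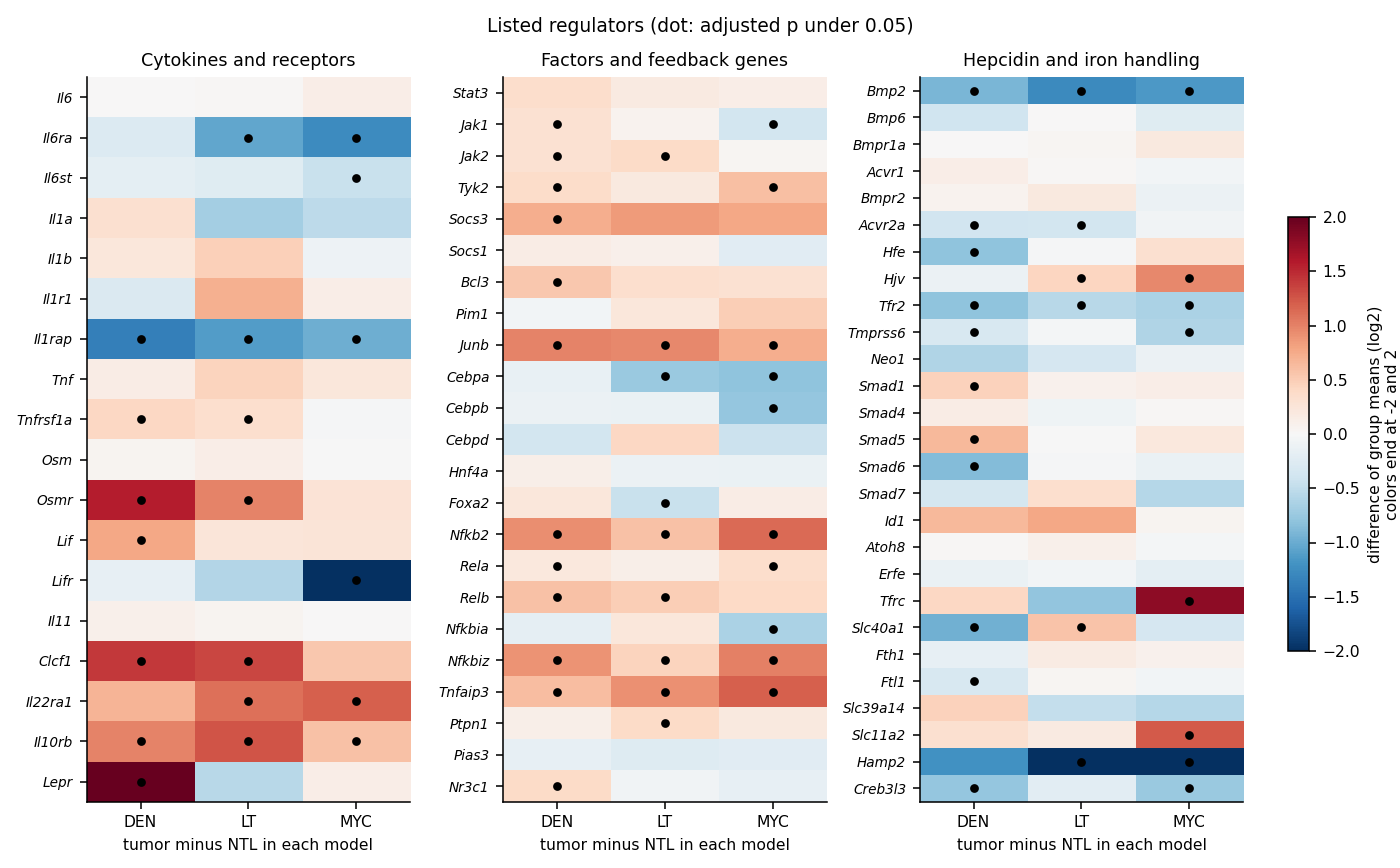
Tumor minus NTL difference in log2 units for the listed cytokines and receptors, transcription factors and feedback genes, and genes of hepcidin regulation and iron handling, with columns for DEN, LT and MYC, colors ending at -2 and 2 and a dot for an adjusted p under 0.05. Il1rap, Bmp2 and Tfr2 carry dots in all 3 columns with lower values in tumors, and Nfkb2, Nfkbiz, Tnfaip3 and Il10rb with higher values.

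Of 27 genes of hepcidin regulation and iron handling, 2 were higher and 9 lower in DEN tumors against DEN NTL. In LT tumors 2 were higher and 4 lower, and in MYC tumors 3 were higher and 5 lower (2 and 9 against shared controls). Bmp2, an endothelial ligand that drives hepcidin synthesis, fell by 0.92 ± 0.34 in DEN, 1.27 ± 0.40 in LT and 1.16 ± 0.40 in MYC (adjusted p of 0.0392, 0.0212 and 0.0348, limma). Bmp6, the other main ligand, was not called (-0.39 ± 0.19, 0.00 ± 0.22 and -0.24 ± 0.22, adjusted p of 0.114, 0.994 and 0.465). Tfr2, an iron sensor of hepatocytes, fell by 0.80 ± 0.13 in DEN, 0.55 ± 0.15 in LT and 0.64 ± 0.15 in MYC (adjusted p of 2.29e-05, 0.00999 and 0.00316). Hjv, the BMP co-receptor hemojuvelin, rose by 0.44 ± 0.13 in LT and 0.95 ± 0.13 in MYC (adjusted p of 0.0157 and 3.93e-06). Against shared controls Hjv differed by 0.21 ± 0.14 in LT tumors and 0.22 ± 0.12 in MYC tumors (adjusted p of 0.311 and 0.214), and it was lower in MYC NTL by -0.74 ± 0.14 (adjusted p = 0.00132). Id1, a target of BMP signaling, differed by 0.65 ± 0.38, 0.77 ± 0.44 and 0.05 ± 0.44 and was not called.

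Calls for genes of iron transport are given by model, and their differences between models were not tested here. Slc40a1, which encodes ferroportin, the target of hepcidin, fell by 0.97 ± 0.15 in DEN tumors (adjusted p = 1.3e-05, limma) and rose by 0.58 ± 0.18 in LT tumors (adjusted p = 0.0203). It is also abundant in Kupffer cells and is itself 1 of their 12 listed markers. Of these, 11 were lower in DEN tumors, ferroportin among them, and 1 was higher, Cdh5, an endothelial cadherin. In LT tumors 4 were higher, ferroportin among them, and 2 were lower than in LT NTL. The summed log2 level of these markers, with ferroportin in the sum, was 11.80 to 12.73 in DEN tumors against 13.21 to 13.78 in DEN NTL. The count and the sum are thus not independent of the ferroportin value, and the part of Kupffer cells in it was not tested. In MYC tumors Tfrc, the transferrin receptor, rose by 1.79 ± 0.40 (adjusted p = 0.00142) and Slc11a2, a ferrous iron transporter, by 1.22 ± 0.20 (adjusted p = 6.83e-05).

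Other positive acute phase proteins did not share 1 direction. Of 22 measured, 7 were higher and 2 lower in DEN tumors against DEN NTL, and 4 higher and 1 lower in LT tumors. In MYC tumors none was higher and 5 were lower (0 and 4 against shared controls). Crp, C-reactive protein and a pentraxin like Apcs, was lower in each model, by -0.49 ± 0.14, -0.45 ± 0.16 and -0.47 ± 0.16 (adjusted p of 0.00658, 0.042 and 0.0318, limma). Il1rn, the interleukin-1 receptor antagonist, rose by 2.88 ± 0.30 and Cd14, the lipopolysaccharide co-receptor, by 2.76 ± 0.32 in DEN tumors (adjusted p of 1.12e-08 and 9.5e-08). A2m, a protease inhibitor, rose by 1.15 ± 0.34 in DEN and 2.27 ± 0.39 in LT (adjusted p of 0.00884 and 0.000159). S100a8 and S100a9, which stand in this list and among the neutrophil markers, rose by 0.71 ± 0.18 and 0.65 ± 0.20 in LT (adjusted p of 0.00414 and 0.0166). In MYC tumors Serpina3n, a protease inhibitor, fell by 0.51 ± 0.13 and Cfb, complement factor B, by 0.39 ± 0.11 (adjusted p of 0.00533 and 0.0119). Against shared controls Cfb was lower by -0.36 ± 0.10 (adjusted p = 0.0119), while Serpina3n differed by -0.05 ± 0.12 in MYC tumors and 0.45 ± 0.14 in MYC NTL (adjusted p of 0.808 and 0.0574).

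Negative acute phase proteins, which fall in inflammation, were likewise mixed: of 11 measured, 4 were higher and 2 lower in DEN tumors against NTL. In LT tumors 1 was higher and 2 lower, and in MYC tumors 1 was higher and 4 lower (0 and 2 against shared controls). Igfals, a carrier of insulin-like growth factors, fell by 2.46 ± 0.24, 1.37 ± 0.27 and 1.23 ± 0.27 (adjusted p of 2.63e-09, 0.000612 and 0.00144, limma). Apoa4, an apolipoprotein, rose by 1.31 ± 0.31 in LT and 1.79 ± 0.31 in MYC (adjusted p of 0.00302 and 0.000101). Against shared controls it differed by 0.84 ± 0.32 in LT tumors and 0.46 ± 0.28 in MYC tumors (adjusted p of 0.0755 and 0.28), and by -1.33 ± 0.32 in MYC NTL (adjusted p = 0.0149). Serpina6, corticosteroid-binding globulin, rose by 0.57 ± 0.13 in DEN (adjusted p = 0.000755).

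Receptors and partners of the member proteins included a receptor that was lower in tumors of every model. Cd163, the macrophage receptor for haptoglobin bound to haemoglobin, fell by 2.69 ± 0.37 in DEN, 1.502 ± 0.42 in LT and 2.12 ± 0.42 in MYC (adjusted p of 1.2e-06, 0.0112 and 0.000491, limma). It also marks Kupffer cells, so a lower level and fewer such cells cannot be told apart. Hmox1, the haem oxygenase that degrades haem taken up through it, rose by 1.61 ± 0.23 in LT and 0.85 ± 0.23 in MYC (adjusted p of 2.47e-05 and 0.00728) and fell by 0.57 ± 0.20 in DEN (adjusted p = 0.0255). In MYC tumors it differed from shared controls by 0.11 ± 0.21 (adjusted p = 0.766). Cd36, a scavenger receptor that can bind serum amyloid A, fell by 1.60 ± 0.30 in DEN (adjusted p = 0.000118) and was higher in MYC tumors than in MYC NTL by 2.66 ± 0.35 (adjusted p = 2.36e-06). In MYC NTL Cd36 was lower than in shared controls by -2.95 ± 0.36 (adjusted p = 6.3e-06), and MYC tumors differed from those controls by -0.29 ± 0.32 (adjusted p = 0.585). Of the 15 genes of this list, 2 were higher and 4 lower in DEN tumors against NTL, and 6 higher and 1 lower in LT tumors. In MYC tumors 2 were higher and 3 lower (0 and 4 against shared controls).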

How the data were processed

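The 35 liver samples were each hybridised to 1 Affymetrix array (Mouse Gene 1.1 ST). The authors deposited log2 values from RMA, per the submitters' processing notes. The version of RMA is not given in the sources used here, nor is the set of arrays it was run on. Precision is limited by the number of arrays.

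The platform annotation gave 1 symbol to 21218 of the 35556 probe sets, more than 1 to 1881 and no symbol to 12457. The brightest single-symbol probe set stood for each of 18820 genes, with no filter on dim genes. The 8 groups follow the labels. limma 3.58.1 in R 4.3.3 fitted a mean per group over all 35 arrays (lmFit and eBayes, Benjamini-Hochberg adjustment, calls at an adjusted p under 0.05). The 12 comparisons set tumors against NTL, tumors against controls, NTL against controls, and the tumor minus NTL change of 1 model against that of another. Errors beside log2 changes are standard errors, and those beside means are standard deviations. Pairs of members were compared with 100000 permutations (scipy 1.17.1), and figures were drawn with matplotlib 3.10.9. Summed marker levels are the log2 of the sum of the markers' linear values.

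The members and gene lists were chosen with earlier results of these data known. Named genes are every member, up to 3 called genes with the largest rise and 3 with the largest fall per list and comparison, and the 3 genes most like each member. Il6, Il1b, Tnf, Socs3, Bmp6, Id1, Alb and a few further list genes outside this rule were named after their values were seen. Replicate numbers recur across groups with different mouse identifiers. Deviations of same-numbered arrays correlated above 0.1 in every pair only for LT tumors and shared controls (0.137 to 0.233), where a block changed no call. On simulated data, between 89% and 96% of genes changed by 1 unit were recovered over the 9 comparisons of groups. The changed genes were drawn at random from all genes, with 1 normal spread per gene. The shares therefore do not describe members of wide or uneven spread, such as Hamp, whose group SDs ran from 0.09 to 3.55. Alternatives are given in the closing section.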

Additional observations from a re-analysis of the deposited data

Results flagged for a closer look

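Among 54 combinations of a member and a group of 4 or 5 arrays, 3 had an array far from the rest of its group by Dixon's ratio, the gap to the nearest array over the range of the group, and chance gives about 1 in 20, or 2.7. Saa2 in DEN tumor 1, at 9.08, was the highest of its group (ratio 0.797). Apcs in DEN NTL 3, at 10.39, was the highest (ratio 0.782), and Hamp in LT NTL 2, at 12.16, was the lowest (ratio 0.728). LT NTL 2 was also the array of its group without high Xist.

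The tumor minus NTL change differed between models in 5 tests of the difference itself (limma, adjusted over all genes). For DEN minus LT it was 0.69 for Saa4, -0.77 for Orm1 and -2.74 for Orm2. For Saa3 it was -2.43 for DEN minus MYC and -2.41 for LT minus MYC. The tumors and NTL of a model come from different mice, so tissue and animal cannot be told apart in these differences. In those that involve LT, model and array sex cannot be fully told apart either. The Orm2 call was lost with array sex as a covariate.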

How the results depend on the processing

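Of 27 member calls in the 12 comparisons, 12 were kept in every fit that left out 1 array, 9 of them also in every other alternative, and 0 reversed direction. The number of members called ranged, over fits without 1 array, from 1 to 5 in LT tumors against LT NTL (3 with all arrays), 1 to 4 in LT tumors against shared controls (2), 2 to 5 in MYC tumors against MYC NTL (5), 0 to 3 in MYC tumors against shared controls (4), 1 to 4 for DEN minus LT (3), 1 to 2 for DEN minus MYC (1) and 0 to 2 for LT minus MYC (1). With only the arrays of the groups compared it was 5 in DEN tumors against DEN NTL (3 with all arrays), 0 in LT tumors against LT NTL, 0 in LT tumors against shared controls (where no gene of the 18820 was called), 2 in MYC NTL against shared controls (0), 0 for DEN minus LT, 2 for DEN minus MYC and 2 for LT minus MYC. The filter on dim genes gave 5 in DEN tumors against DEN NTL. With arrays of a shared stem averaged it was 1 in LT tumors against LT NTL, 1 against shared controls, 1 for DEN minus LT and 0 for LT minus MYC. With array sex as a covariate it was 1 in LT tumors against shared controls, 2 in LT tumors against LT NTL, 2 for DEN minus LT and 5 in MYC tumors against shared controls. The causes were not tested. The replicate number as a block gave 2 for DEN minus MYC; it also lost Lcn2 in LT tumors against LT NTL (1.44, adjusted p = 0.0742, limma) and Saa3 in MYC. Pairs of members within groups fell to 0 of 36 without the DEN controls, and ranged from 0 to 6 over groups left out.

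Centring each array on its median moved the share of higher calls over all genes to 40.8% in LT tumors against LT NTL (52.3% as deposited) and to 53.8% in MYC NTL against shared controls (43.4%), with no member call lost. Groups of 3 to 5 arrays limit every value, most of all the 3 LT tumors, of which 2 share a stem. Of changes of 0.5 units in simulated data, 50% to 74% were recovered, for genes drawn at random from all genes and not for the members.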
